A study of Mus musculus with 21 samples.

Results

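The genes described here are the fibroblast growth factors (FGFs), their receptors and the inhibitors that FGF signalling switches on against itself, measured in sorted cells of mouse embryoid bodies on day 4. The set was defined by gene symbol: every numbered Fgf gene, Fgfr1 to Fgfr4 and Fgfrl1, Spry1 to Spry4, Spred1 to Spred3, Dusp4 and Dusp6. It came to 36 of the 55487 genes counted, namely 22 FGF genes, 5 receptor genes and 9 inhibitor genes. Embryoid bodies are aggregates in which embryonic stem cells differentiate. Sorting used 2 surface receptors, FLK1 (gene Kdr) and PDGFRalpha (gene Pdgfra). Cells carrying FLK1 without PDGFRalpha are called SP, and cells carrying both are called DP. The TGET line holds the reporters T-GFP and Etv2-tdTomato. Both of its gates were split by tdTomato, which gave SP Etv2+, SP Etv2-, DP Etv2+ and DP Etv2- cells. A further group was SP cells of the iETV2 line, here iEtv2 SP, in which doxycycline at 2 µg/ml from day 2.5 induces Etv2. The last 2 were SP and DP cells of wildtype A2lox.Cre embryoid bodies (WT), for which the labels list no doxycycline, so the line, the drug and induced Etv2 cannot be told apart. With 3 libraries in each of 7 groups there were 21. The labels do not say that they came from separate cultures, so p-values measure a spread that may be technical.

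FGFs are secreted proteins that, with heparan sulfate, bind receptor tyrosine kinases and switch on the RAS-ERK cascade. In the gastrulating mouse embryo they are needed for cells to leave the primitive streak and form mesoderm. ERK activity in turn raises the Sprouty and Spred proteins, which dampen the cascade near RAS, and the phosphatases Dusp4 and Dusp6, which switch ERK off. Etv2 belongs to the ETS family of transcription factors, which bind a DNA core of GGAA, and is needed for blood and endothelium to form.

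Counts assigned to genes ran from 25045553 to 32777143 in the 12 TGET libraries and from 22406153 to 28184904 in the other 9. Values below are counts per 1000000 (CPM, with library sizes scaled by the TMM method). The libraries of a group are given in the order of their replicate numbers, and means have the SD over n = 3 libraries. Fold changes are log2 values ± SE from edgeR quasi-likelihood tests. Genes whose p, adjusted by Benjamini and Hochberg's method over every gene tested, lay under 0.05 are named as called. Pseudogenes held 12.2 to 14.4% of counts in the TGET table and 0.549 to 0.636% in the other files, so levels are compared within each set only. Ribosomal RNA took 1.28% of counts in SP Etv2- replicate 2 and 1.17% in SP Etv2+ replicate 3, against 0.146 to 0.337% in the other 10 TGET libraries. In the second set that share ran from 0.496 to 2.12%. As a check of the labels, Etv2 averaged 89.0 ± 17.0 CPM in SP Etv2+ and 26.6 ± 1.04 CPM in SP Etv2- cells. It averaged 58.4 ± 10.3 CPM in DP Etv2+ and 20.2 ± 2.61 CPM in DP Etv2- cells, and 239 ± 10.2 CPM in iEtv2 SP against 93.6 ± 22.4 CPM in WT SP cells. In bulk samples, fewer cells of a type and less RNA per cell cannot be told apart.

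A small part of the family carried most of the signal. In all 3 libraries of every group, 25 of the 36 genes exceeded 3 counts. Fgf6, Fgf9, Fgf20 and Fgf21 did so in no group, and Fgf20 and Fgf21 had 0 counts in all 21 libraries, which allows at most 0.135 CPM for counting error. Another 7, namely Fgf1, Fgf12, Fgf14, Fgf16, Fgf18, Fgf22 and Fgf23, did so in 1 to 6 groups. After the filter on low counts 27 genes were tested in each set. Fgf6, Fgf9, Fgf14, Fgf16, Fgf20, Fgf21, Fgf22 and Fgf23 were left out in both sets, Fgf1 in the TGET set and Fgf18 in the second.

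Per kilobase of exon, the FGF genes of highest level differed between groups. Fgf3 led in SP Etv2+ cells with 53.6 ± 9.82 CPM per kb, in SP Etv2- cells with 28.4 ± 3.13 and in DP Etv2+ cells with 33.5 ± 3.49, and it also led in WT SP cells with 68.7 ± 7.89. In DP Etv2- cells Fgf8 and Fgf3 were within their spread of each other, at 40.0 ± 6.80 and 39.0 ± 3.62 CPM per kb, as they were in WT DP cells at 55.1 ± 10.2 and 50.3 ± 2.98. In iEtv2 SP cells Fgf8 stood at 21.6 ± 11.97, Fgf10 at 10.2 ± 2.09, Fgf5 at 8.83 ± 2.67 and Fgf3 at 6.17 ± 2.61 CPM per kb, with overlapping spreads from one to the next. Summed over the 22 FGF genes, the level came to 54.8 ± 18.6 CPM per kb in iEtv2 SP, against 153.9 ± 1.21 in WT SP cells. Fgf3 made up 11.3% of that sum in iEtv2 SP and 44.6% in WT SP cells. Among receptors, Fgfr1 had the highest level per kilobase in all 7 groups, from 17.5 ± 0.825 CPM per kb in SP Etv2+ to 23.9 ± 0.132 in WT DP cells. By group mean Fgfrl1 was second in all of them, although Fgfr2 lay above it in DP Etv2+ replicate 3. That order depends on the exon lengths of the GENCODE M21 annotation, 10328 bases for Fgfr2 and 2782 for Fgfrl1. The length of Fgfr2 includes exon sequence shared with the gene Ctbp2. In CPM not divided by length, Fgfr2 was above Fgfrl1 in every library of DP Etv2+, SP Etv2+ and SP Etv2- cells.

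With Etv2 induced by doxycycline, related members moved in opposite directions. For 2 inhibitor genes that were higher in iEtv2 SP than in WT SP cells (Spry1 and Dusp6) and a ligand and a receptor gene that were lower (Fgf3 and Fgfrl1), the 250 bases before the RefSeq start are shown. Capitals mark the ETS core GGAA, or TTCC where it lies on the other strand. The sequences are from RefSeq on GRCm38.p6 and given 5′ to 3′ on the strand of the gene, in each case the plus strand. In the GENCODE M21 annotation Fgf3 starts at 144838083 and Fgfrl1 at 108692382, so their windows lie inside the annotated genes. For Fgfrl1 the bases just after the RefSeq start were found in no GENCODE transcript of the gene.
Spry1, chr3:37639697-37639946: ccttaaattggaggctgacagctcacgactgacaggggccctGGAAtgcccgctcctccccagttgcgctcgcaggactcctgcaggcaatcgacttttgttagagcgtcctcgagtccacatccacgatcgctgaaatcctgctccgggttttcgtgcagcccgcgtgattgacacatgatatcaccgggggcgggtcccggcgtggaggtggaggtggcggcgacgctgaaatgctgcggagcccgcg
Dusp6, chr10:99262981-99263230: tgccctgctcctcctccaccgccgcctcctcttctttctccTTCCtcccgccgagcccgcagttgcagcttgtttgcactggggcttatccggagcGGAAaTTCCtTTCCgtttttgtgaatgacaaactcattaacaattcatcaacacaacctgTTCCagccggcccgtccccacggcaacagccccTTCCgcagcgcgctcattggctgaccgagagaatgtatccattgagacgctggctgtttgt
Fgf3, chr7:144838362-144838611: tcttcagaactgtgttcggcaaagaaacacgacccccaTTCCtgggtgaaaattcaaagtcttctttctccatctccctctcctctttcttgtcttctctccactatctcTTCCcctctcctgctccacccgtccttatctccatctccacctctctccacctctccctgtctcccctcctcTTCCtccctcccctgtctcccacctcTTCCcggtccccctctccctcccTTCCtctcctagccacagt
Fgfrl1, chr5:108693979-108694228: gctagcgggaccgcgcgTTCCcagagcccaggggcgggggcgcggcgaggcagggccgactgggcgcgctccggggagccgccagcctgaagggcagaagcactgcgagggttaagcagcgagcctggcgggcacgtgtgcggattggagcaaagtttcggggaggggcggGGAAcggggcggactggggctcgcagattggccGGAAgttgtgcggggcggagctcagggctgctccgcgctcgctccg
The core occurred 1 time in the Spry1 window, 6 times in that of Dusp6, 5 times in that of Fgf3 and 3 times in that of Fgfrl1, so it was present beside higher and lower genes alike. It was present in 93.4% of 32851 such windows of all genes and in 97.0% of the 33 windows of 26 members that the RefSeq table holds. The longer ETS motif CCGGAA, searched on both strands and containing GGAA, was in 12.1% of the member windows, 4 of 33, and in 12.03% of all windows. Of the 4 windows shown it was in that of Fgfrl1 only, 48 bases before the RefSeq start. The other members with it were Fgf5, Fgf12 and Fgfr4. These matches describe letters and are not measured binding.

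Of the 7 comparisons, that of iEtv2 SP with WT SP cells called the most members and that of the gates among Etv2+ cells the fewest. In iEtv2 SP over WT SP cells 17 of the 27 genes tested were called, where 50.8% of all 16288 genes tested were. Of these 17, 5 were higher, as were 26.4% of all genes, and 12 were lower, as were 24.4%. With the Etv2 reporter in DP cells 13 were called, against 30.7% of all 17690 genes. They were 5 higher, against 16.0% of all genes, and 8 lower, against 14.7%. In SP cells 7 were called with the reporter, against 25.5%, with 2 higher against 13.1% and 5 lower against 12.4%. For SP over DP among Etv2- cells 8 were called where 10.9% of all genes were, with 3 higher against 6.10% and 5 lower against 4.84%. Among Etv2+ cells 4 were called where 13.9% of all genes were, with 2 higher against 6.95% and 2 lower against 6.94%. In WT cells SP over DP gave 8 calls where 15.8% of all genes were called, with 3 higher against 9.08% and 5 lower against 6.76%. The reporter effect differed between the gates for 5 members where it did for 3.97% of all genes, with 4 more positive in SP against 1.52% and 1 more negative against 2.45%. The median log2 fold change of the 27 members ran from -0.26 for the WT gates to 0.02 for the gate difference of the reporter effect, and that of all genes tested from -0.01 to 0.00. With the reporter in SP, 2314 of all genes were called higher and 2190 lower under TMM, and 1800 higher and 2653 lower under upper-quartile scaling, where 2 members were higher and 6 lower.

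**Figure D1:**
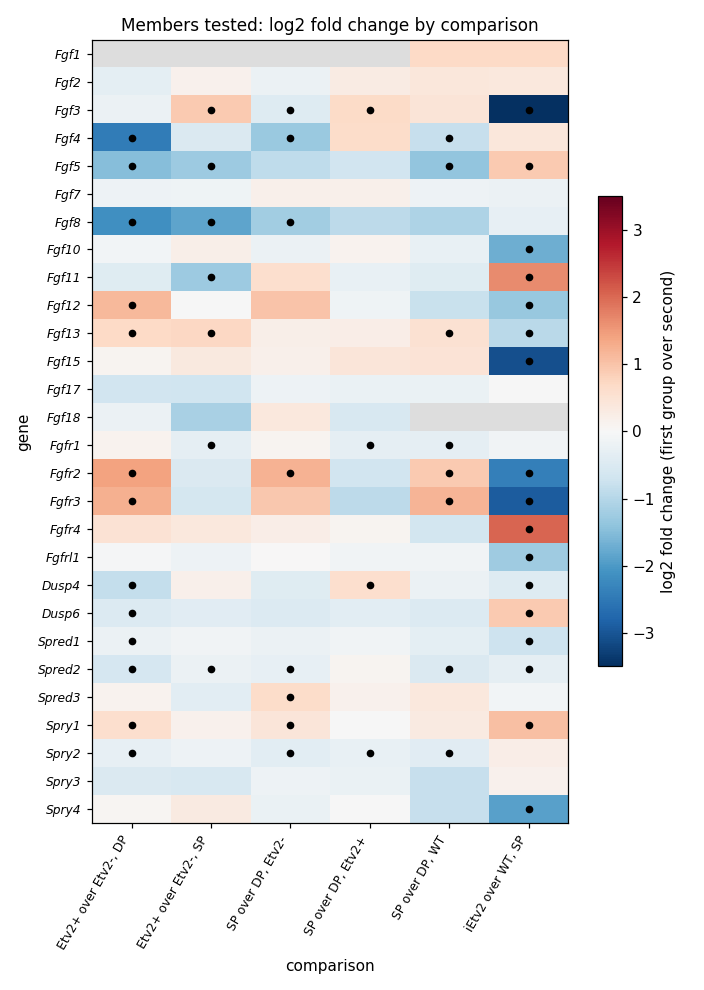
Log2 fold change (colour, first group over second) of the members tested, in rows, for 6 comparisons, in columns; a black dot marks an adjusted p under 0.05 and grey a gene not tested in that set. Fgf3, Fgf15, Fgfr2 and Fgfr3 are dark blue in the iEtv2 column, with Fgf3 at -3.48, while Fgfr4, at 2.04, is the deepest red there.

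Single libraries decided several of these counts. For SP over DP among Etv2- cells the member count was 3, 2 and 12 without DP Etv2- replicates 1, 2 and 3 in turn. It was 3, 5 and 4 without SP Etv2- replicates 1, 2 and 3 in turn. The calls over all genes moved with it, at 787, 815 and 2268 in the DP fits and 1049, 1407 and 1092 in the SP fits, against 1936 with all libraries. With the reporter in DP it was 8 without DP Etv2- replicate 2, and with the reporter in SP it was 4 without SP Etv2+ replicate 2 or replicate 3. Among Etv2+ cells the SP over DP count was 1 without SP Etv2+ replicate 2 or replicate 3. In WT it was 13 without WT DP replicate 1, where 2683 of all genes were called in place of 2580. It was 5 without WT SP replicate 1 or replicate 3, where 1509 and 1873 were. DP Etv2- replicate 3 stood apart from its group in several members, and its values are given below.

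Fgf3, Fgf4 and Fgf15 lie side by side on chromosome 7, 2.931 kb and 31.288 kb apart by their GENCODE M21 spans. The Fgf4 span begins at 144847367, whereas its RefSeq start lies just after 144861385. Fgf3 (ENSMUSG00000031074, chromosome 7, 144838083 to 144844436, plus strand, GENCODE M21 on GRCm38) encodes a secreted ligand that the embryo needs for the inner ear and the tail. It measured 10.5, 21.3 and 11.2 CPM in iEtv2 SP against 175, 139.5 and 164 CPM in WT SP cells. For Fgf3 the log2 fold change was -3.48 ± 0.23, with an edgeR adjusted p of 7.99e-07. No member tested had a lower fold change there, and every iEtv2 library was far below every WT SP library. Fgf15, the mouse counterpart of the human hormone gene FGF19, was at 4.79, 6.06 and 4.91 CPM in iEtv2 SP against 51.8, 39.3 and 40.9 in WT SP cells. For Fgf15 the log2 fold change was -3.07 ± 0.18, with an edgeR adjusted p of 3.52e-07. Fgf4, a ligand of the early embryo that lies between them, was not called, at 3.99, 4.08 and 3.49 CPM in iEtv2 SP against 2.87, 3.96 and 1.95 in WT SP cells. For Fgf4 the log2 fold change was 0.39 ± 0.23, with an edgeR adjusted p of 0.176. Its groups overlapped, and it passed the threshold without WT SP replicate 2 (adjusted p = 0.0218).

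With the reporter the same cluster behaved differently by gate. Fgf3 stood at 104, 121 and 149 CPM in SP Etv2+ against 58.8, 66.1 and 73.4 CPM in SP Etv2- cells, so that all Etv2+ libraries were higher. For Fgf3 the log2 fold change was 0.91 ± 0.13, with an edgeR adjusted p of 0.000337. In DP cells it had 84.6, 68.9 and 80.3 CPM with the reporter against 93.5, 97.3 and 81.2 CPM without it, and the groups overlapped. For Fgf3 the log2 fold change was -0.22 ± 0.13, with an edgeR adjusted p of 0.219. SP cells held more Fgf3 than DP cells among Etv2+ cells (log2 fold change 0.68 ± 0.13, edgeR adjusted p = 0.0045) and less among Etv2- cells (log2 fold change -0.45 ± 0.13, edgeR adjusted p = 0.0356). That last call was lost in 4 of the 6 cases in which 1 library was left out, with adjusted p of 0.0847 to 0.142 (the call held without DP Etv2- replicate 3 or SP Etv2- replicate 3). In WT cells Fgf3 measured 175, 139.5 and 164 CPM in SP against 125, 116 and 111 CPM in DP cells and was not called (log2 fold change 0.45 ± 0.20, edgeR adjusted p = 0.171), although the groups did not overlap. Fits of the WT groups alone and without the filter called it higher in SP. Fgf4 had 0.735, 1.12 and 1.05 CPM in DP Etv2+ against 5.41, 5.69 and 4.81 CPM in DP Etv2- cells. For Fgf4 the log2 fold change was -2.44 ± 0.21, with an edgeR adjusted p of 5.28e-06. No member had a lower fold change with the reporter in DP. In SP cells it had 1.03, 1.63 and 1.85 CPM with the reporter against 2.12, 2.31 and 2.01 CPM without it, with no overlap and no call. For Fgf4 the log2 fold change was -0.51 ± 0.21, with an edgeR adjusted p of 0.0919. It was lower in SP than in DP among Etv2- cells (log2 fold change -1.30 ± 0.19, edgeR adjusted p = 0.00109) and in WT cells, where it had 2.87, 3.96 and 1.95 CPM in SP against 4.92, 5.64 and 4.74 CPM in DP. For Fgf4 the log2 fold change was -0.80 ± 0.23, with an edgeR adjusted p of 0.0353. The WT call was lost in 5 of the 6 cases in which 1 library was left out, with adjusted p of 0.0553 to 0.105 (the call held without WT SP replicate 2). A fit of the WT groups alone lost it too. Among Etv2+ cells Fgf4 was not called between the gates (log2 fold change 0.63 ± 0.23, edgeR adjusted p = 0.087), and it passed the threshold without SP Etv2+ replicate 1 (adjusted p = 0.0338). Fgf15 was not called by edgeR with TMM scaling and the filter in any reporter or gate comparison. It had 58.3, 61.2 and 81.5 CPM in SP Etv2+, 53.0, 46.6 and 59.9 in SP Etv2-, 45.1, 42.8 and 62.4 in DP Etv2+ and 40.9, 45.4 and 53.4 in DP Etv2- cells. In the second set it had 51.8, 39.3 and 40.9 CPM in WT SP against 38.8, 29.2 and 25.8 in WT DP cells. The groups overlapped in each TGET comparison and not between the WT gates. Its SP over DP difference passed the threshold among Etv2+ cells without DP Etv2+ replicate 3 (adjusted p = 0.0258) and in WT without WT DP replicate 1 (adjusted p = 0.0102). DESeq2 called it between the WT gates, with an adjusted p of 0.0209. Without the filter it passed in SP with the reporter and between the gates of Etv2+ and of WT cells.

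Fgf8 and Fgf5 were lower where the Etv2 reporter was on. Fgf8 is the ligand that cells need to move out of the primitive streak, and Fgf5 marks the epiblast, the tissue from which the streak forms. Fgf8 (ENSMUSG00000025219, chromosome 19, 45736798 to 45742915, minus strand) had 6.60, 9.01 and 3.94 CPM in SP Etv2+ against 23.8, 31.9 and 14.4 CPM in SP Etv2- cells. For Fgf8 the log2 fold change was -1.85 ± 0.35, with an edgeR adjusted p of 0.00232. In DP cells it had 13.1, 16.4 and 7.28 CPM with the reporter against 58.5, 60.1 and 43.5 CPM without it. For Fgf8 the log2 fold change was -2.15 ± 0.33, with an edgeR adjusted p of 0.000351. Neither pair of groups overlapped, and DP Etv2- cells held the most in the TGET set. Between gates it was lower in SP than in DP among Etv2- cells (log2 fold change -1.21 ± 0.31, edgeR adjusted p = 0.0256), a call that was lost in 4 of the 6 cases in which 1 library was left out, with adjusted p of 0.0804 to 0.0963 (the call held without DP Etv2- replicate 3 or SP Etv2- replicate 2). Among Etv2+ cells it was not called (log2 fold change -0.91 ± 0.35, edgeR adjusted p = 0.105), and it passed the threshold without DP Etv2+ replicate 3 (adjusted p = 0.0442). It also passed with the replicate number as a block (edgeR adjusted p = 0.000939) and without the filter. In WT cells Fgf8 had 30.8, 39.8 and 35.7 CPM in SP against 69.5, 89.9 and 63.7 CPM in DP cells, with no overlap but no call. For Fgf8 the log2 fold change was -1.07 ± 0.33, with an edgeR adjusted p of 0.0501. It was called lower in SP under upper-quartile scaling (edgeR adjusted p = 0.0491). The same held with the replicate number as a block, with the WT groups alone and without the filter. With induced Etv2 it had 12.7, 45.0 and 29.9 CPM, which spanned the WT SP values (log2 fold change -0.28 ± 0.33, edgeR adjusted p = 0.512). Summed primitive streak markers followed the same order over those iEtv2 libraries, at 355, 927 and 656 CPM.

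Fgf5 had 3.06, 4.38 and 2.47 CPM in SP Etv2+ against 10.4, 9.003 and 4.43 CPM in SP Etv2- cells. For Fgf5 the log2 fold change was -1.27 ± 0.44, with an edgeR adjusted p of 0.0491. In DP cells it had 4.93, 8.13 and 2.73 CPM with the reporter against 15.4, 20.5 and 7.98 CPM without it (log2 fold change -1.49 ± 0.41, edgeR adjusted p = 0.0146), with replicate 3 the lowest in every TGET group and the DP groups overlapping. The SP call was lost in 5 of the 6 cases in which 1 library was left out, with adjusted p of 0.0586 to 0.157 (the call held without SP Etv2- replicate 3), and the DP call without DP Etv2- replicate 2 (adjusted p = 0.0729) or without DP Etv2+ replicate 3 (adjusted p = 0.0545). DESeq2 did not make the SP call either (adjusted p = 0.0527). Without both libraries of high ribosomal RNA share the SP call was lost as well (edgeR adjusted p = 0.254). WT SP cells had 6.59, 18.5 and 9.85 CPM against 25.2, 37.5 and 29.2 CPM in WT DP cells, all lower (log2 fold change -1.39 ± 0.34, edgeR adjusted p = 0.0174), a call that was lost without WT DP replicate 2 (adjusted p = 0.0556), without WT SP replicate 1 (adjusted p = 0.0509) or without WT SP replicate 3 (adjusted p = 0.0667). With induced Etv2 the direction was the other way: 14.5, 24.6 and 27.1 CPM in iEtv2 SP against 6.59, 18.5 and 9.85 CPM in WT SP cells. For Fgf5 the log2 fold change was 0.92 ± 0.34, with an edgeR adjusted p of 0.0398. The groups overlapped, and the call was lost in 4 of the 6 cases in which 1 library was left out, with adjusted p of 0.0903 to 0.137 (the call held without WT SP replicate 2 or iEtv2 SP replicate 1). DESeq2 did not call it, with an adjusted p of 0.065, and neither did a fit of the compared groups alone.

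**Figure D2:**
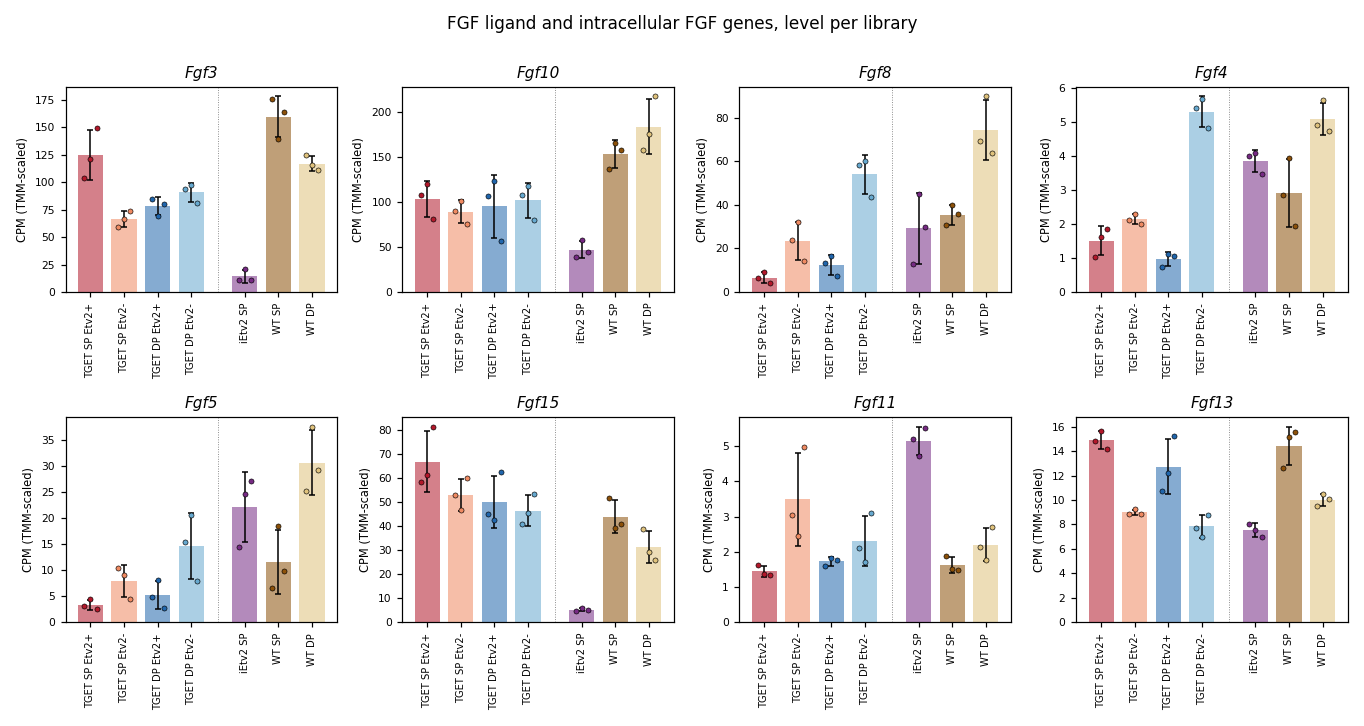
Level of 8 FGF genes in CPM (vertical axes, linear from 0) in each library (points) of the 7 groups (horizontal axes), with bars for means and whiskers for SD of 3 libraries; a dotted line parts the TGET set from the other, and levels compare within a side only. Fgf3 and Fgf15 are near the floor of their panels in iEtv2 SP cells, with 14.4 and 5.25 CPM on average, and Fgf8 is highest in the DP cells without reporter or of WT.

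Fgf10, a ligand needed for limb and lung and made by cardiac progenitors, measured 39.1, 57.6 and 43.9 CPM in iEtv2 SP against 136, 166 and 158 CPM in WT SP cells, all lower. For Fgf10 the log2 fold change was -1.71 ± 0.16, with an edgeR adjusted p of 7.04e-06. In the TGET set it was not called, at 108, 120.4 and 81.4 CPM in SP Etv2+, 90.3, 101 and 75.9 in SP Etv2-, 106, 123 and 56.0 in DP Etv2+ and 107, 118 and 80.0 in DP Etv2- cells, with replicate 3 lowest in each group. Its log2 fold changes there ran from -0.19 ± 0.24 to 0.21 ± 0.24. In WT cells it had 136, 166 and 158 CPM in SP against 157, 176 and 217 CPM in DP cells and was not called. For Fgf10 the log2 fold change was -0.26 ± 0.15, with an edgeR adjusted p of 0.29. Fgf1, Fgf2, Fgf7, Fgf17 and Fgf18, ligands of several subfamilies, were at most 1.14 CPM in every library and were not called in any comparison in which they were tested.

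The intracellular FGFs, which stay in the cell and bind voltage-gated sodium channels rather than receptors, changed in opposite directions with induced Etv2. Fgf13 had 8.05, 7.58 and 6.94 CPM in iEtv2 SP against 12.6, 15.1 and 15.5 CPM in WT SP cells, lower in all libraries. For Fgf13 the log2 fold change was -0.94 ± 0.12, with an edgeR adjusted p of 7.74e-05. Fgf11 had 5.22, 4.73 and 5.52 CPM in iEtv2 SP against 1.88, 1.52 and 1.49 CPM in WT SP cells, which is higher in all libraries. For Fgf11 the log2 fold change was 1.66 ± 0.20, with an edgeR adjusted p of 4.76e-05. Fgf13 was higher with the reporter in both gates. In SP cells it had 14.8, 15.7 and 14.2 CPM with the reporter against 8.89, 9.23 and 8.87 CPM without (log2 fold change 0.73 ± 0.12, edgeR adjusted p = 0.0013), and in DP cells 10.8, 12.2 and 15.2 CPM against 7.72, 6.99 and 8.82 CPM. For Fgf13 the log2 fold change was 0.70 ± 0.12, with an edgeR adjusted p of 0.000986. The groups overlapped in neither gate. In WT cells Fgf13 was higher in SP, where it had 12.6, 15.1 and 15.5 CPM, than in DP, where it had 9.53, 10.5 and 10.1 CPM (log2 fold change 0.52 ± 0.12, edgeR adjusted p = 0.0124), a call that was lost without WT SP replicate 3 (adjusted p = 0.0549). Fgf11 was lower with the reporter in SP, at 1.62, 1.37 and 1.34 CPM in Etv2+ against 3.05, 2.44 and 4.98 CPM in Etv2- cells. For Fgf11 the log2 fold change was -1.27 ± 0.27, with an edgeR adjusted p of 0.00521. In DP cells it was not called, at 1.58, 1.84 and 1.77 CPM with the reporter against 2.12, 1.72 and 3.097 CPM without. Fgf12 reached at most 0.816 CPM in any library. It was called higher with the reporter in DP (log2 fold change 1.12 ± 0.37, edgeR adjusted p = 0.0352) and lower in iEtv2 SP than in WT SP cells (log2 fold change -1.32 ± 0.40, edgeR adjusted p = 0.0179). The DP call was lost in 5 of the 6 cases in which 1 library was left out, with adjusted p of 0.0645 to 0.122 (the call held without DP Etv2+ replicate 3), the iEtv2 call without WT SP replicate 2 (adjusted p = 0.0624), without WT SP replicate 3 (adjusted p = 0.0508) or without iEtv2 SP replicate 2 (adjusted p = 0.0714), and DESeq2 made neither. Without the filter the iEtv2 call was lost as well.

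Fgfr1, the receptor gene that mesoderm formation in the mouse depends on, changed by small amounts. It had 182, 169.6 and 167 CPM in SP Etv2+ against 208, 197 and 237 CPM in SP Etv2- cells, a small fall with no overlap. For Fgfr1 the log2 fold change was -0.31 ± 0.08, with an edgeR adjusted p of 0.0172. In DP cells it had 202, 205 and 240.5 CPM with the reporter against 197, 189 and 213 CPM without, which overlapped. For Fgfr1 the log2 fold change was 0.11 ± 0.08, with an edgeR adjusted p of 0.348. SP cells had less than DP cells among Etv2+ cells (log2 fold change -0.32 ± 0.08, edgeR adjusted p = 0.0249) and in WT, where SP had 192, 189 and 182 CPM against 237, 235 and 235 CPM in DP. For Fgfr1 the log2 fold change was -0.33 ± 0.06, with an edgeR adjusted p of 0.00345. Among Etv2- cells the gates overlapped (log2 fold change 0.10 ± 0.08, edgeR adjusted p = 0.503). The SP reporter call was lost without SP Etv2- replicate 3 (adjusted p = 0.0852), without SP Etv2+ replicate 2 (adjusted p = 0.062) or without SP Etv2+ replicate 3 (adjusted p = 0.0599), and the Etv2+ gate call without DP Etv2+ replicate 3 (adjusted p = 0.0941), without SP Etv2+ replicate 2 (adjusted p = 0.0826) or without SP Etv2+ replicate 3 (adjusted p = 0.0832). The Etv2+ gate call was also lost with the compared groups alone (edgeR adjusted p = 0.0531) and without both libraries of high ribosomal RNA share (edgeR adjusted p = 0.0828). With induced Etv2 Fgfr1 was not called, at 180.1, 172 and 169 CPM in iEtv2 SP against 192, 189 and 182 CPM in WT SP cells. For Fgfr1 the log2 fold change was -0.12 ± 0.06, with an edgeR adjusted p of 0.118.

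Fgfr2 and Fgfr3 are receptor kinase genes best known from limb and lung growth and from the growth of long bones. Both were called higher in DP with the reporter and in SP over DP of WT cells, and lower with induced Etv2. Fgfr2 (ENSMUSG00000030849, chromosome 7, 130162451 to 133123350, minus strand) had 10.1, 7.20 and 8.90 CPM in iEtv2 SP against 44.0, 53.1 and 39.9 CPM in WT SP cells. That GENCODE M21 span holds many other genes, whereas the RefSeq start of Fgfr2 lies just below 130266809. For Fgfr2 the log2 fold change was -2.39 ± 0.19, with an edgeR adjusted p of 3.36e-06. Fgfr3 had 1.53, 1.72 and 1.49 CPM in iEtv2 SP against 11.3, 13.4 and 10.7 CPM in WT SP cells. For Fgfr3 the log2 fold change was -2.90 ± 0.21, with an edgeR adjusted p of 1.47e-06. Both were lower in every iEtv2 library than in any WT library of either gate. Between the WT gates they were higher in SP: Fgfr2 had 44.0, 53.1 and 39.9 CPM in SP against 23.7, 31.0 and 18.5 CPM in DP cells. For Fgfr2 the log2 fold change was 0.90 ± 0.18, with an edgeR adjusted p of 0.00709. Fgfr3 had 11.3, 13.4 and 10.7 CPM in WT SP against 6.52, 5.26 and 3.74 CPM in WT DP cells. For Fgfr3 the log2 fold change was 1.18 ± 0.19, with an edgeR adjusted p of 0.00179. For both, every WT SP library exceeded every WT DP library.

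By group mean DP Etv2- cells held the least of both receptors in the TGET line, with 1 library apart. That library, replicate 3, held more Fgfr3 than any SP Etv2+ library. Fgfr2 had 99.0, 101 and 149 CPM in DP Etv2+ against 30.3, 29.3 and 71.9 CPM in DP Etv2- cells. For Fgfr2 the log2 fold change was 1.41 ± 0.31, with an edgeR adjusted p of 0.00398. In SP cells it had 86.2, 64.4 and 68.0 CPM with the reporter against 102, 75.6 and 131 CPM without, which overlapped. For Fgfr2 the log2 fold change was -0.50 ± 0.30, with an edgeR adjusted p of 0.254. DP Etv2- replicate 3 had far more Fgfr2 than the other two libraries of its group and lay just under the lowest SP Etv2- library. Fgfr3 had 30.3, 27.5 and 45.9 CPM in DP Etv2+ against 9.13, 9.04 and 25.8 CPM in DP Etv2- cells (log2 fold change 1.24 ± 0.37, edgeR adjusted p = 0.0219), and 21.01, 17.4 and 16.5 CPM in SP Etv2+ against 27.2, 18.1 and 39.1 CPM in SP Etv2- cells. For Fgfr3 the log2 fold change was -0.62 ± 0.37, with an edgeR adjusted p of 0.236. The Fgfr3 call in DP was lost without DP Etv2- replicate 1 (adjusted p = 0.088), without DP Etv2- replicate 2 (adjusted p = 0.0916) or without DP Etv2+ replicate 3 (adjusted p = 0.0888). Fgfr2 was higher in SP than in DP among Etv2- cells (log2 fold change 1.23 ± 0.31, edgeR adjusted p = 0.0229), a call that was lost in 4 of the 6 cases in which 1 library was left out, with adjusted p of 0.0615 to 0.11 (the call held without DP Etv2- replicate 3 or SP Etv2- replicate 2). Fgfr3 was not called there (log2 fold change 0.94 ± 0.37, edgeR adjusted p = 0.13) and passed the threshold without DP Etv2- replicate 3 (adjusted p = 0.00358). With all libraries Fgfr3 passed it with the replicate number as a block (edgeR adjusted p = 0.0149) and without the filter. Among Etv2+ cells neither was called between the gates, with log2 fold changes of -0.68 ± 0.30 for Fgfr2 and -0.92 ± 0.37 for Fgfr3, though neither pair of groups overlapped. With the replicate number as a block both were called lower in SP (edgeR adjusted p = 0.0458 for Fgfr2 and 0.0258 for Fgfr3). Both were also called with the compared groups alone (edgeR adjusted p = 0.0464 and 0.0253) and without the filter. Fgfr2 shares exon sequence on the same strand with Ctbp2, which ran from 76.1 to 100.9 CPM over the 21 libraries, so some reads may have been counted for either gene. Other partners of the members given here by library, on the opposite strand, reached at most 2.29 CPM.

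Fgfr4, known in mouse as the liver receptor of the bile acid hormone FGF15, was the only receptor gene that was higher with induced Etv2. It had 3.72, 1.22 and 2.33 CPM in iEtv2 SP against 0.510, 0.609 and 0.637 CPM in WT SP cells, low levels with a wide spread and no overlap. For Fgfr4 the log2 fold change was 2.04 ± 0.42, with an edgeR adjusted p of 0.00213. In the TGET set it stayed between 0.422 and 1.08 CPM and was not called. Fgfrl1 (ENSMUSG00000008090, chromosome 5, 108692382 to 108706924, plus strand), a receptor that binds FGFs and lacks the kinase, had 14.8, 18.3 and 16.4 CPM in iEtv2 SP against 36.7, 38.4 and 42.6 CPM in WT SP cells. For Fgfrl1 the log2 fold change was -1.25 ± 0.10, with an edgeR adjusted p of 2.2e-06. In the other comparisons edgeR with TMM scaling and no block did not call it, while under upper-quartile scaling it was called lower with the reporter in SP (adjusted p = 0.0432). It had 34.2, 36.7 and 32.0 CPM in SP Etv2+, 38.1, 39.8 and 37.6 in SP Etv2-, 37.6, 40.1 and 34.3 in DP Etv2+ and 38.6, 38.4 and 38.1 in DP Etv2- cells, and 43.0, 43.4 and 40.8 CPM in WT DP cells.

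**Figure D3:**
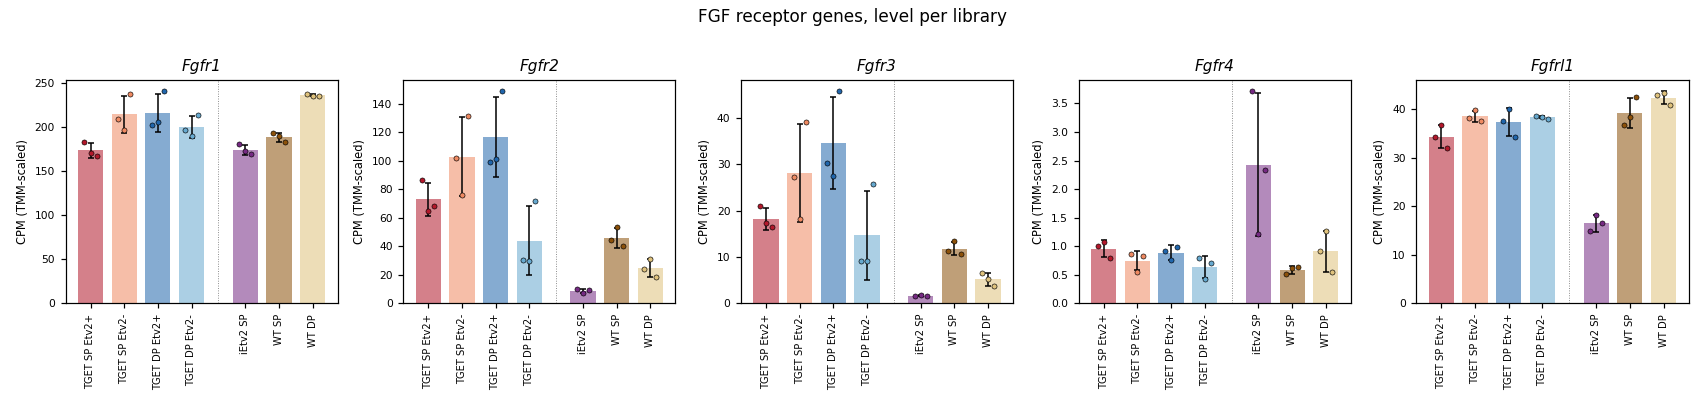
Level of the 5 receptor genes in CPM (vertical axes, linear from 0) in each library (points) of the 7 groups, with bars for means and whiskers for SD of 3 libraries; the dotted line parts the TGET set from the other. Fgfr2 and Fgfr3 have their lowest bars in iEtv2 SP cells, at 8.73 and 1.58 CPM, and DP Etv2- replicate 3 lies above the other two points of its group.

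Among the inhibitors, Spry1 and Dusp6 were higher with induced Etv2 while Spry4, Spred1, Spred2 and Dusp4 were lower. Spry1, a Sprouty gene, had 30.5, 29.8 and 31.1 CPM in iEtv2 SP against 12.6, 15.1 and 16.5 CPM in WT SP cells. For Spry1 the log2 fold change was 1.05 ± 0.14, with an edgeR adjusted p of 0.000121. Dusp6, the cytoplasmic ERK phosphatase that FGF signalling induces in many embryonic tissues, had 126, 189 and 181 CPM in iEtv2 SP against 66.5, 99.8 and 94.4 CPM in WT SP cells. For Dusp6 the log2 fold change was 0.93 ± 0.19, with an edgeR adjusted p of 0.00222. In both genes all iEtv2 libraries lay above all WT SP libraries. Spry4 had 5.14, 14.1 and 9.64 CPM in iEtv2 SP against 31.8, 38.3 and 36.9 CPM in WT SP cells. For Spry4 the log2 fold change was -1.89 ± 0.29, with an edgeR adjusted p of 0.000288. Its iEtv2 libraries were spread but all lower. Spry2 was not called (log2 fold change 0.22 ± 0.12, edgeR adjusted p = 0.148). The Sprouty genes thus split, with Spry1 higher, Spry4 lower, and Spry2 and Spry3 without a call. Spred1, which brings the RAS inactivator neurofibromin to the membrane, had 103, 123 and 110.4 CPM in iEtv2 SP against 161, 210.0 and 179 CPM in WT SP cells. For Spred1 the log2 fold change was -0.71 ± 0.12, with an edgeR adjusted p of 0.000575. Dusp4, a nuclear ERK phosphatase, had 130.1, 132 and 130.0 CPM in iEtv2 SP against 165, 191 and 183 CPM in WT SP cells. For Dusp4 the log2 fold change was -0.46 ± 0.11, with an edgeR adjusted p of 0.00602. Neither Spred1 nor Dusp4 overlapped between these groups. Spred2 was lower by a small amount (log2 fold change -0.31 ± 0.11, edgeR adjusted p = 0.0383), a call that was lost in 5 of the 6 cases in which 1 library was left out, with adjusted p of 0.0582 to 0.155 (the call held without iEtv2 SP replicate 2). Summed over the 9 inhibitor genes, the level was 178.7 ± 18.4 CPM per kb in iEtv2 SP and 180.1 ± 19.6 in WT SP cells.

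With the reporter in DP cells 5 of the 9 inhibitor genes were lower and 1 was higher, where 14.7% of all genes were lower and 16.0% higher. Dusp4 had 62.7, 88.5 and 72.0 CPM in DP Etv2+ against 148, 144 and 103 CPM in DP Etv2- cells. For Dusp4 the log2 fold change was -0.82 ± 0.17, with an edgeR adjusted p of 0.00314. Spred2 had 49.3, 59.98 and 55.4 CPM in DP Etv2+ against 82.8, 85.3 and 81.0 CPM in DP Etv2- cells. For Spred2 the log2 fold change was -0.60 ± 0.07, with an edgeR adjusted p of 4.46e-05. These groups did not overlap, and the Spred2 libraries were close within each group. Dusp6 had 46.1, 48.6 and 43.2 CPM in DP Etv2+ against 71.0, 72.4 and 49.6 CPM in DP Etv2- cells. For Dusp6 the log2 fold change was -0.48 ± 0.15, with an edgeR adjusted p of 0.0227. There DP Etv2- replicate 3 came close to the DP Etv2+ libraries. Spry2, a Sprouty gene, had 69.2, 74.8 and 71.5 CPM in DP Etv2+ against 87.6, 87.4 and 88.6 CPM in DP Etv2- cells. For Spry2 the log2 fold change was -0.29 ± 0.08, with an edgeR adjusted p of 0.012. Spred1 was lower by the smallest margin, with 145, 149 and 142 CPM in DP Etv2+ against 172, 174 and 156 CPM in DP Etv2- cells. For Spred1 the log2 fold change was -0.20 ± 0.07, with an edgeR adjusted p of 0.0419. Neither Spry2 nor Spred1 overlapped between the groups. The Dusp6 call was lost in 4 of the 6 cases in which 1 library was left out, with adjusted p of 0.055 to 0.095 (the call held without DP Etv2- replicate 3 or DP Etv2+ replicate 2), and the Spred1 call in 5 of the 6 cases in which 1 library was left out, with adjusted p of 0.0517 to 0.132 (the call held without DP Etv2- replicate 3). With the compared groups alone the Spred1 call was lost too (edgeR adjusted p = 0.0505). Spry1 again went up, with 13.4, 13.6 and 16.5 CPM in DP Etv2+ against 9.64, 8.98 and 10.1 CPM in DP Etv2- cells. For Spry1 the log2 fold change was 0.60 ± 0.10, with an edgeR adjusted p of 0.000772.

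With the reporter in SP cells Spred2 alone among the inhibitors was called, with 60.3, 58.8 and 58.3 CPM in SP Etv2+ against 72.2, 67.1 and 65.3 CPM in SP Etv2- cells (log2 fold change -0.21 ± 0.07, edgeR adjusted p = 0.0422), and that call was lost in each of the 6 cases in which 1 library was left out, with adjusted p of 0.0586 to 0.158. It was also lost without both libraries of high ribosomal RNA share (edgeR adjusted p = 0.152). Dusp6 had 38.5, 38.8 and 29.3 CPM in SP Etv2+ against 52.1, 47.5 and 39.7 CPM in SP Etv2- cells, with no overlap. For Dusp6 the log2 fold change was -0.39 ± 0.15, with an edgeR adjusted p of 0.0713. Libraries with the same replicate number deviated together in this comparison. With the replicate number as a block, 11 members were called in place of 7, while the calls over all 17690 genes came to 5445 in place of 4504. The 4 that were added were Dusp6 (log2 fold change -0.39 ± 0.08, adjusted p = 0.00274), Fgf15 (0.32 ± 0.07, adjusted p = 0.00544), Fgfrl1 (-0.17 ± 0.06, adjusted p = 0.0446) and Spred3 (-0.39 ± 0.14, adjusted p = 0.0471). In fits with no block Dusp6 passed the threshold without SP Etv2- replicate 3 (adjusted p = 0.047), with DESeq2 (adjusted p = 0.0467), with the compared groups alone (adjusted p = 0.0477) and without the filter (adjusted p = 4.51e-05). Its SE was 0.08 without the filter, in place of 0.15. Spred3 passed the threshold without SP Etv2+ replicate 1 (adjusted p = 0.0305). Dusp4 ran from 80.3 to 134 CPM over the SP libraries of the TGET line, and its groups overlapped (log2 fold change 0.18 ± 0.17, edgeR adjusted p = 0.475).

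Between the gates Spry2 was lower in SP in all 3 comparisons. It had 65.6, 63.5 and 51.9 CPM in SP Etv2+ against 69.2, 74.8 and 71.5 CPM in DP Etv2+ cells. For Spry2 the log2 fold change was -0.25 ± 0.08, with an edgeR adjusted p of 0.0461. Among Etv2- cells it had 70.9, 64.4 and 69.1 CPM in SP Etv2- against 87.6, 87.4 and 88.6 CPM in DP Etv2- cells. For Spry2 the log2 fold change was -0.37 ± 0.08, with an edgeR adjusted p of 0.00956. In WT it had 53.7, 65.3 and 69.3 CPM in SP against 77.2, 88.2 and 84.5 CPM in DP cells. For Spry2 the log2 fold change was -0.41 ± 0.12, with an edgeR adjusted p of 0.041. In each of these comparisons all SP libraries lay below all DP libraries. The Etv2+ call was lost in 4 of the 6 cases in which 1 library was left out, with adjusted p of 0.0631 to 0.144 (the call held without DP Etv2+ replicate 1 or SP Etv2+ replicate 1), and the WT call in 4 of the 6 cases in which 1 library was left out, with adjusted p of 0.0606 to 0.148 (the call held without WT DP replicate 1 or WT SP replicate 3). With the compared groups alone the Etv2+ call was also lost (edgeR adjusted p = 0.124). The same held without both libraries of high ribosomal RNA share (log2 fold change -0.16 ± 0.06, edgeR adjusted p = 0.146). Spred2 was lower in SP among Etv2- cells (log2 fold change -0.28 ± 0.07, edgeR adjusted p = 0.0178) and in WT, at 67.9, 77.3 and 69.2 CPM in SP against 86.4, 112 and 108 CPM in DP cells. For Spred2 the log2 fold change was -0.51 ± 0.11, with an edgeR adjusted p of 0.0095. Its Etv2- call was lost in 4 of the 6 cases in which 1 library was left out, with adjusted p of 0.0545 to 0.0874 (the call held without DP Etv2- replicate 3 or SP Etv2- replicate 1). That call was also lost without both libraries of high ribosomal RNA share (edgeR adjusted p = 0.0733). Dusp4 was higher in SP than in DP among Etv2+ cells, at 96.3, 105 and 134 CPM against 62.7, 88.5 and 72.0 CPM (log2 fold change 0.59 ± 0.17, edgeR adjusted p = 0.0401), a call that was lost in 4 of the 6 cases in which 1 library was left out, with adjusted p of 0.0722 to 0.152 (the call held without DP Etv2+ replicate 2 or SP Etv2+ replicate 1). Leaving out both libraries of high ribosomal RNA share also lost it (edgeR adjusted p = 0.1495). Among Etv2- cells Spry1 had 13.0, 11.8 and 13.9 CPM in SP against 9.64, 8.98 and 10.1 CPM in DP cells. For Spry1 the log2 fold change was 0.43 ± 0.10, with an edgeR adjusted p of 0.0181. Spred3, a further Spred gene, had 5.99, 5.95 and 5.29 CPM in SP against 4.11, 3.56 and 3.40 CPM in DP cells there. For Spred3 the log2 fold change was 0.64 ± 0.15, with an edgeR adjusted p of 0.0168. Neither gene overlapped between these gates. The Spry1 call was lost in 4 of the 6 cases in which 1 library was left out, with adjusted p of 0.0617 to 0.0933 (the call held without DP Etv2- replicate 3 or SP Etv2- replicate 2), and the Spred3 call without DP Etv2- replicate 2 (adjusted p = 0.0761), without SP Etv2- replicate 1 (adjusted p = 0.0629) or without SP Etv2- replicate 2 (adjusted p = 0.0536). Without DP Etv2- replicate 3, Dusp4, Dusp6 and Spred1 passed the threshold as lower in SP among Etv2- cells. With all libraries Dusp6 passed it there by DESeq2 (adjusted p = 0.0178), with the replicate number as a block (edgeR adjusted p = 0.00139) and without the filter. Spred1 passed with the block (edgeR adjusted p = 0.0274) and Dusp4 without the filter (log2 fold change -0.42 ± 0.08, edgeR adjusted p = 1.06e-06). Standard errors were smaller in fits without the filter, as described in the closing section. Among Etv2+ cells Dusp6 passed as lower in SP with the block (edgeR adjusted p = 0.00563) and without the filter. In WT, Dusp4, Dusp6, Spred1 and Spry4 passed as lower in SP without WT DP replicate 1, Spred1 also without WT SP replicate 2, and Spry1 as higher without WT DP replicate 2. With all WT libraries Dusp6, Spred1 and Spry4 passed as lower with the block and without the filter. Spry3 stayed at or under 1.03 CPM in all libraries and was not called in any comparison. By edgeR with all libraries, the filter and no block, Spry4 was called with induced Etv2 only. In fits of the WT groups alone Spry4 was also called lower in SP than in DP (adjusted p = 0.0127).

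**Figure D4:**
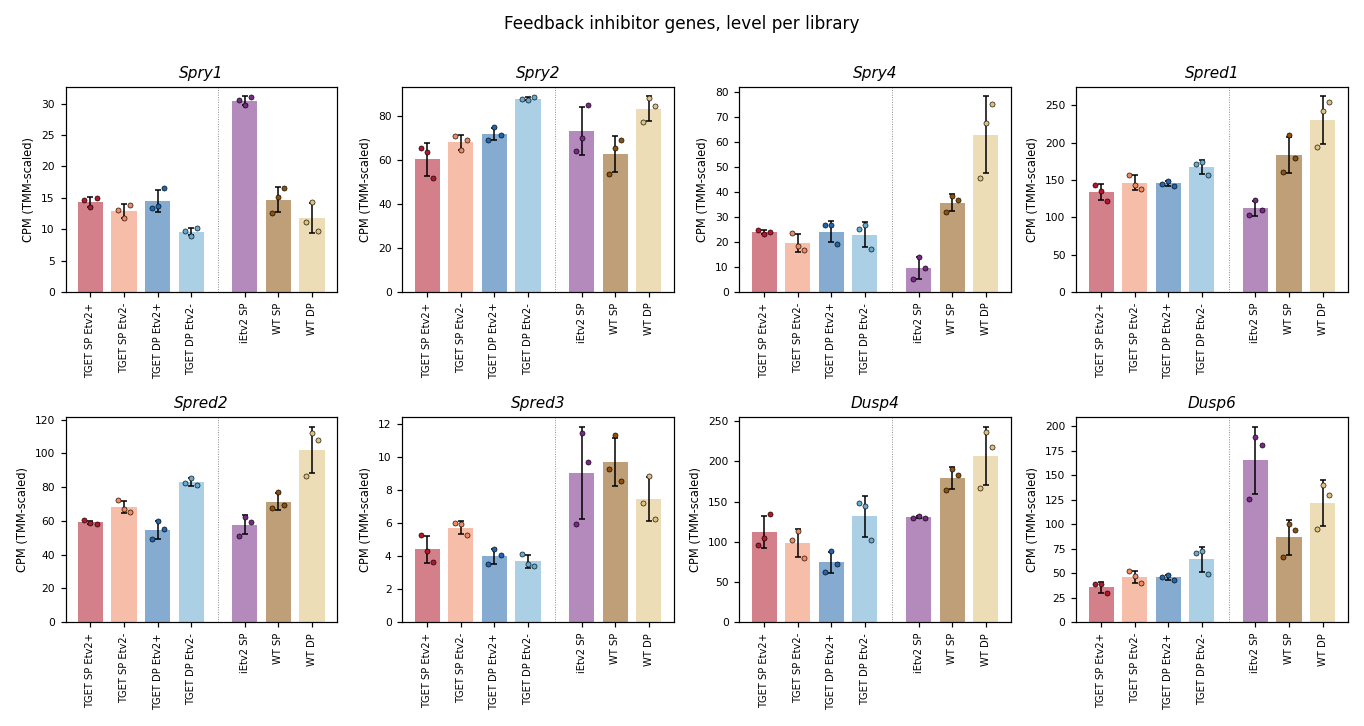
Level of 8 inhibitor genes in CPM (vertical axes, linear from 0) in each library (points) of the 7 groups, with bars for means and whiskers for SD of 3 libraries; the dotted line parts the TGET set from the other. Spry1 and Dusp6 have their highest bars of the right side in iEtv2 SP cells, at 30.5 and 165.3 CPM, where Spry4 has its lowest, at 9.63 CPM.

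The effect of the reporter itself differed between the gates for Fgf3, Fgf4, Fgfr2, Dusp4 and Spred2, by a test of the difference. The effect in SP minus that in DP was 1.13 ± 0.18 for Fgf3 (edgeR adjusted p = 0.013), which was higher with the reporter in SP and not called in DP. For Fgf4 it was 1.93 ± 0.30 (edgeR adjusted p = 0.013), with a call lower in DP and none in SP. For Fgfr2 it was -1.90 ± 0.43 (edgeR adjusted p = 0.0337), higher with the reporter in DP and lower without a call in SP. Dusp4 gave 1.01 ± 0.25 (edgeR adjusted p = 0.0413) and Spred2 0.39 ± 0.10 (edgeR adjusted p = 0.0417). Dusp4 was lower with the reporter in DP and not called in SP, and Spred2 was lower in both, with the larger fall in DP. Fgfr3 had a difference of -1.86 ± 0.52 that missed the threshold (edgeR adjusted p = 0.0651), and Fgfr1 one of -0.42 ± 0.12 (edgeR adjusted p = 0.0669). Fgf3 and Fgf4 kept their calls whichever library was left out. The Fgfr2 call was lost in 7 of the 12 cases in which 1 library was left out, with adjusted p of 0.0697 to 0.0961 (the call held without DP Etv2- replicate 3, DP Etv2+ replicate 1, DP Etv2+ replicate 2, SP Etv2- replicate 2 or SP Etv2+ replicate 1). That of Dusp4 was lost in 8 of the 12 cases in which 1 library was left out, with adjusted p of 0.0728 to 0.12 (the call held without DP Etv2- replicate 3, DP Etv2+ replicate 2, SP Etv2- replicate 2 or SP Etv2+ replicate 1), and that of Spred2 in 9 of the 12 cases in which 1 library was left out, with adjusted p of 0.0708 to 0.129 (the call held without DP Etv2- replicate 3, DP Etv2+ replicate 1 or DP Etv2+ replicate 2). With the replicate number as a block Fgfr3 (adjusted p = 0.00682), Fgfr1 (adjusted p = 0.0194) and Spry1 (adjusted p = 0.0296) were called too, 8 members in all, where 1537 of all genes were called in place of 702. DESeq2 also called Fgfr3 (adjusted p = 0.0473) and Fgfr1 (adjusted p = 0.0223). In edgeR fits with no block Fgfr1 passed the threshold without DP Etv2- replicate 3 (adjusted p = 0.0451) or without DP Etv2+ replicate 1 (adjusted p = 0.04996), and Fgfr3 without DP Etv2- replicate 3 (adjusted p = 0.00274). Without both libraries of high ribosomal RNA share, Fgf3 and Fgf4 remained called and 119 of all genes were, in place of 702. The all-gene count without single libraries ran from 50, without DP Etv2- replicate 2, to 1268, without DP Etv2- replicate 3.

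Around the members, 4 lists of pathway genes were read from the same edgeR tests, and every gene named from them was called in the comparison it is named for. A first list holds 13 gastrulation genes chosen as dependent on FGF signalling, a dependence that was not tested here. Some of them are also primitive streak or paraxial markers. Of the 13, 11 were lower with the reporter in DP and 8 in SP, and 9 were lower in iEtv2 SP than in WT SP cells. None was higher in these 3 comparisons, in which 14.7%, 12.4% and 24.4% of all genes were lower. Their median log2 fold changes were -1.90, -1.64 and -1.88, against 0.00, -0.01 and 0.00 for all genes tested. In SP over DP 7 of the 13 were lower and 1 higher among Etv2- cells and again in WT, and 4 were lower with none higher among Etv2+ cells. Of all genes 4.84% were lower and 6.10% higher among Etv2- cells. In WT 6.76% were lower and 9.08% higher, and among Etv2+ cells 6.94% and 6.95%. Mesp1, a transcription factor of nascent mesoderm, averaged 3.21 CPM in iEtv2 SP against 57.9 in WT SP cells (log2 fold change -4.18 ± 0.54). Dll1, a Notch ligand, averaged 2.53 CPM in DP Etv2+ against 32.4 in DP Etv2- cells (log2 fold change -3.69 ± 0.25).

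Genes that ERK induces, and other feedback genes, went in both directions. Of 25 tested, with induced Etv2 10 were higher and 6 lower, with a median of 0.19, where 26.4% of all genes were higher and 24.4% lower. Etv4, an ETS factor gene that FGF signalling induces, averaged 4.31 CPM in iEtv2 SP against 32.9 in WT SP cells (log2 fold change -2.93 ± 0.39). Myc was lower too (-1.83 ± 0.17), whereas Ier3 (2.16 ± 0.19) and Cnpy1 (2.92 ± 0.38) were higher. With the reporter 6 were higher and 6 lower in DP, where 16.0% of all genes were higher and 14.7% lower. In SP 7 were higher and 4 lower, where 13.1% and 12.4% were. Among them were the related Etv1, which was lower in both (-0.89 ± 0.12 in DP and -0.95 ± 0.12 in SP), and Phlda1, which was higher in both (1.23 ± 0.19 in DP and 1.27 ± 0.17 in SP). Between the gates the counts were 2 higher and 4 lower among Etv2- cells, against 6.10% and 4.84% of all genes. They were 4 and 4 among Etv2+ cells, against 6.95% and 6.94%, and 5 and 2 in WT, against 9.08% and 6.76%.

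Of the 25 adaptor and RAS-ERK cascade genes, 7 were higher and 6 lower with induced Etv2, with a median of 0.06. Over all genes 26.4% were higher and 24.4% lower, so these shares are near the background. Gab1 and Shc1, docking and adaptor proteins between receptors and RAS, averaged 272 and 451 CPM in iEtv2 SP against 83.1 and 191 CPM in WT SP cells (log2 fold changes 1.71 ± 0.07 and 1.24 ± 0.08), and the kinase gene Braf was lower (-1.29 ± 0.18). Of the 25, 5 were higher and 1 lower with the reporter in DP, against 16.0% and 14.7% of all genes. In SP they were 2 and 3, against 13.1% and 12.4%. Between the gates they were 3 and 1 among Etv2- cells, against 6.10% and 4.84%. They were 1 and 1 among Etv2+ cells, against 6.95% and 6.94%, and 5 and 1 in WT, against 9.08% and 6.76%. Of the co-receptor and heparan sulfate genes, 24 were tested in the TGET set and 25 in the second. Of these, 7 were higher and 10 lower with induced Etv2, with a median of -0.10, against 26.4% and 24.4% of all genes. They were 8 higher and 6 lower with the reporter in DP, against 16.0% and 14.7%, and 5 and 6 with the reporter in SP, against 13.1% and 12.4%. Between the gates they were 2 and 3 among Etv2- cells, against 6.10% and 4.84%. They were 2 and 4 among Etv2+ cells, against 6.95% and 6.94%, and 5 and 4 in WT, against 9.08% and 6.76%. Gpc3, a cell-surface heparan sulfate proteoglycan, averaged 133 CPM in iEtv2 SP against 1032 CPM in WT SP cells (log2 fold change -2.96 ± 0.13). Flrt3, a membrane protein that binds FGF receptors, was lower with induced Etv2 (-1.95 ± 0.17) and higher with the reporter in DP (2.19 ± 0.18) and SP (1.01 ± 0.16).

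Markers of other cell states moved with these members, and their part in the results was not tested. Some genes stand in more than 1 list. Of all genes tested, 16.0% were higher and 14.7% lower with the reporter in DP, and 13.1% and 12.4% in SP. With induced Etv2 26.4% were higher and 24.4% lower. The 12 primitive streak markers summed to 311.9 to 556 CPM in SP Etv2+, 521 to 926 CPM in SP Etv2- and 349.6 to 827 CPM in DP Etv2+ cells. In DP Etv2- cells they summed to 1996, 1953 and 1209 CPM, with replicate 3 the lowest. Of these 12, 10 were lower with the reporter in DP and 6 in SP, beside the lower Fgf5 and Fgf8 in both gates and the lower Fgf4 in DP. Pluripotency markers were lower in 6 of 12 with the reporter in DP, with 1 higher, and in 8 of 12 in SP. Endothelial markers were higher in 5 of the 10 tested in DP and in 10 of 10 in SP, with sums of 122 to 236 CPM in SP Etv2+ against 31.0 to 54.2 CPM in SP Etv2- cells. Hematopoietic markers were higher in 3 of 12 in DP and in 11 of 12 in SP, with sums of 255 to 449 CPM in SP Etv2+ against 63.9 to 83.4 CPM in SP Etv2- cells. The 10 paraxial mesoderm markers summed to 21.1 to 38.8 CPM in DP Etv2+ against 180.9 to 263 CPM in DP Etv2- cells. A list of fibroblast genes, kept because the stem cells had been grown on feeders, summed to 373 to 562 CPM in DP Etv2+ against 66.7 to 174 CPM in DP Etv2- cells. The highest value of each of these groups was in replicate 3, as for Fgfr2 and Fgfr3. Of that list 3 of the 6 genes tested were higher with the reporter in DP, and Dcn and Lum were at 0 counts in DP Etv2- cells. With induced Etv2, 12 of 12 endothelial markers were higher, with sums of 1735 to 2166.4 CPM in iEtv2 SP against 140.3 to 203.6 CPM in WT SP cells. Pluripotency markers were higher in 9 of 12, with sums of 947 to 1001 CPM in iEtv2 SP against 657 to 876 CPM in WT SP cells. Lateral plate and cardiac markers were lower in 9 of 11, with sums of 176.1 to 240.1 CPM in iEtv2 SP against 1241 to 1372 CPM in WT SP cells, beside the lower Fgf3, Fgf10, Fgf15, Fgfr2 and Fgfr3. Pdgfra, the gene of the sorting receptor that SP cells lack, averaged 6.74 ± 3.55 CPM in iEtv2 SP against 40.0 ± 7.75 CPM in WT SP cells.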

How the data were processed

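Total RNA libraries (TruSeq Stranded Total RNA, per the labels' protocols) were deposited as raw read counts per Ensembl gene. Per the submitters' processing notes they were made with featureCounts on mm10; versions, aligner, annotation and strand setting are not given in the sources used here. The 9 WT and iEtv2 files also hold entries for unassigned reads (3.95 to 5.25% unmapped), of a kind featureCounts does not write, so the tool is in doubt for them; these were left out. Because the strand setting is unknown, reads of the 10 members that share exon sequence with a gene on the other strand may be misassigned. GENCODE M21 named 55227 of 55487 IDs.

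Counts were tested in edgeR 4.0.16 (R 4.3.3): TMM scaling, filterByExpr, quasi-likelihood with a term per group, 12 and 9 libraries fitted apart, checked on simulated data. SE is the absolute log2 fold change over the square root of F. Figures used Python 3.11.15, pandas 2.3.3, numpy 2.4.6 and matplotlib 3.10.9. Each fit was repeated with libraries left out, on the compared groups alone, with a replicate block, with DESeq2 1.42.0, with upper-quartile or RLE scaling, and with a minimum of 1 CPM in 3 libraries or no minimum. Libraries of equal replicate number correlated at 0.175 to 0.342 (reporter, DP) and 0.143 to 0.268 (reporter, SP) after group means were removed, over the 0.1 set for pairing. The numbers come from the sample titles. Members, lists and alternatives were chosen with earlier results of these data known. Values per library are given for members of at least 5 CPM in a group and called in a comparison of the same set, and for receptors; other members given by library were chosen after their values were seen. Up to 4 called genes per list were eligible to be named. Counts of at most 3 were treated as the floor, and limits cover counting error only.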

Additional observations from a re-analysis of the deposited data

Results flagged for a closer look

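For 5 members the effect of the Etv2 reporter in SP cells differed from that in DP cells by the test of the difference (edgeR quasi-likelihood, Benjamini-Hochberg over all genes), as it did for 3.97% of all genes. On the log2 scale the effect in SP minus that in DP was 1.13 for Fgf3, 1.93 for Fgf4, -1.90 for Fgfr2, 1.01 for Dusp4 and 0.39 for Spred2. The effects behind them were 0.91 ± 0.13 in SP and -0.22 ± 0.13 in DP for Fgf3, and -0.51 ± 0.21 in SP and -2.44 ± 0.21 in DP for Fgf4. For Fgfr2 they were -0.50 ± 0.30 in SP and 1.41 ± 0.31 in DP. Dusp4 gave 0.18 ± 0.17 in SP and -0.82 ± 0.17 in DP, and Spred2 -0.21 ± 0.07 in SP and -0.60 ± 0.07 in DP. The calls of Fgfr2, Dusp4 and Spred2 were lost in 7, 8 and 9 of the 12 fits that left out 1 library, and without both libraries of high ribosomal RNA share (adjusted p = 0.0694 for Fgfr2, 0.0799 for Dusp4 and 0.126 for Spred2).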

How the results depend on the processing

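No called member reversed its direction under any alternative. Of 62 called results of single members, 35 kept their call under all alternatives and 27 lost it under at least 1. Results without a call were followed only for receptors and for members of at least 5 CPM in a group of the set. Of these 83, 34 gained a call under at least 1 alternative. Without a filter on low counts 12 members were called with the reporter in SP, 14 and 10 for SP over DP among Etv2- and Etv2+ cells, 16 for the WT gates, and 1740 of all genes for the gate difference of the reporter effect. Standard errors could be far smaller in that fit for the same counts. Fgf8 between the WT gates had -1.07 ± 0.11 there, against -1.08 ± 0.33 under upper-quartile scaling with the filter. Calls gained only without the filter rest on that smaller estimate of the spread. With a replicate block the member counts were 11 with the reporter in SP, 10 for the Etv2+ gates, 13 for the WT gates and 8 for the gate difference. All-gene calls under the block were 5445, 3370, 3242 and 1537 in that order, against 4504, 2456, 2580 and 702. The block changed no call of a member with the reporter in DP. In the reporter and gate comparisons alike, the replicate number was the only link between libraries, and the main fits used no block. Between the gates, libraries of equal number correlated at 0.0962 to 0.334 (Etv2-), 0.0767 to 0.269 (Etv2+) and 0.0916 to 0.342 (WT). The lowest of each range was under the 0.1 set for pairing. In each of these comparisons all 6 libraries were closest to their own number, against 3 of 6 for iEtv2 over WT SP. DESeq2 called 1289 genes for the gate difference, and a fit of the compared groups alone 1324 for the Etv2+ gates. Without both libraries of high ribosomal RNA share the counts were 2459 genes with the reporter in SP, 1 member and 1106 genes for the Etv2+ gates, and 2 members and 119 genes for the gate difference.

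Leaving out 1 library at a time gave 8 to 12 members with the reporter in DP, 4 to 7 with the reporter in SP, 2 to 12 and 1 to 5 for the Etv2- and Etv2+ gates, 5 to 13 for the WT gates, 2 to 7 for the gate difference and 15 to 17 with induced Etv2. All-gene counts were 787 to 2268 and 1342 to 2403 for the Etv2- and Etv2+ gates, 1509 to 2683 for the WT gates and 50 to 1268 for the gate difference. Depth limits members under 1 CPM: their standard errors reach a large share of the change, and a lack of a call there does not show equal levels.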
